A study of Arabidopsis thaliana with 4 samples.

Results

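A small set of chitinase genes, a beta-1,3-glucanase gene, an osmotin gene and a defensin-like gene of Arabidopsis thaliana were followed in rosette leaves after phosphate had been withdrawn from the roots. The members are CHI (AT2G43570), AT2G43590, ChiC (AT4G19810), AT4G16260, OSM34 (AT4G11650) and LCR68 (AT2G02130), and every probe set naming exactly 1 of these genes was taken. That gave 7 probe sets for 6 genes, of 8247 probe sets analysed and 3592 genes with a name. The genes were chosen from their values on these same arrays, so the levels and ratios below are a description and no test was made of them.

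The study used 4 Affymetrix arrays, with 1 array for each combination of solution and time. The leaves came from plants without phosphate at 100 h, plants with full nutrients at 100 h, plants without phosphate at 4 h and plants with full nutrients at 4 h, the hours being counted from nutrient removal. Full nutrients held 0.25 mM phosphate as KH2PO4, and the solution without phosphate had extra K2SO4 in its place. All plants were of the ecotype Col-5 at growth stage 6.10, had been kept on MS agar with sucrose for 21 days and were then moved to hydroponics under constant light at 24 °C. How many plants went into an array is not stated. The title code of the array labelled full nutrients at 100 h (P24) resembles the codes of the no-phosphate arrays (PO6 and P72), so its solution is in doubt. The numbers in these codes also differ from the labelled hours, which every ratio of 100 h over 4 h rests on. The treatment and time labels were followed as written.

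Chitinases and beta-1,3-glucanases cut chitin and beta-1,3-glucan, polymers of fungal cell walls, and osmotin belongs to the thaumatin family of antifungal proteins. Together with the defensins, small cysteine-rich peptides, they are known as pathogenesis-related proteins. In leaves, many of their genes respond to pathogens, to hormones such as salicylic acid, jasmonate, ethylene and abscisic acid, and to salt or drought. Plants short of phosphate are known to retune immune signalling along with their phosphate transporters and lipid metabolism.

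The values are intensities on a linear scale. An intensity under 7.25 is treated as a bound and was set to that floor before a ratio was taken; the floor is the 30th percentile of an array, averaged over the 4 arrays. Calls of higher or lower needed a ratio of at least 2-fold and an intensity of 22.45 on the brighter array, the mean over arrays of the median and below called the level, which all 7 probe sets reached on at least 1 array. Of the members' values, the nearest to the floor from above were 9.2 for AT2G43590 and 11.8 for ChiC, and those under it were 2.9 for ChiC and 2.1 for AT2G43590. Each group is a single array, and precision is limited by how few arrays there are. The only error that could be estimated was the spread of a ratio among probe sets that share a gene, a log2 SD of 0.41 for phosphate removal at 100 h (81 genes), 0.35 for phosphate removal at 4 h (86 genes), 0.54 for time without phosphate (90 genes) and 0.49 for time in full nutrients (84 genes). This SD covers neither plants nor hybridisations.

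The arrays differed in technical measures along with the solution. The scanner background averaged 69.92 without phosphate and 55.21 in full nutrients at 100 h, and 56.94 without phosphate and 49.74 in full nutrients at 4 h. The 9 spike-in probe sets, for RNA added to each hybridisation, gave log2 ratios of no phosphate over full nutrients that averaged -1.06 ± 0.24 (SD, n = 9 probe sets) at 100 h and -0.51 ± 0.12 at 4 h. GAPDH signal from the 3′ end over that from the 5′ end, a sign of RNA and labelling quality, was 2.12 without phosphate and 4.52 in full nutrients at 100 h, and 2.61 without phosphate and 4.07 in full nutrients at 4 h. The same measure for ubiquitin differed less, with 2.97 without phosphate and 3.35 in full nutrients at 100 h, and 2.57 without phosphate and 3.09 in full nutrients at 4 h. The part of these differences in the results was not tested. Of 17 leaf marker genes, 5 had a named probe set, and all 7 of their probe sets reached the level. None of 8 root, 5 flower or 23 phosphate-starvation genes had a probe set named in the annotation, so neither root RNA nor the phosphate state of the plants was checked here.

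CHI is annotated as a putative chitinase, an enzyme that cuts chitin. Its intensity was 102.2 without phosphate and 318.3 in full nutrients at 100 h, and 1997 without phosphate and 1660.5 in full nutrients at 4 h. Both 4 h arrays were thus above both 100 h arrays. At 100 h CHI was 3.11-fold lower without phosphate (log2 ratio -1.64), while at 4 h the ratio of 1.20-fold (log2 0.27) lay within the SD of 0.35 between probe sets of a gene.

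AT2G43590 encodes another protein of the chitinase family and is measured by 2 probe sets, here called set r and set s after the suffixes of their names. Set r had 9.2 without phosphate and 117.1 in full nutrients at 100 h, and 50.5 without phosphate and 23.0 in full nutrients at 4 h. Set s had 2.1 without phosphate, below the floor, and 309.4 in full nutrients at 100 h, against 70.2 without phosphate and 42.6 in full nutrients at 4 h. Both sets put the 4 arrays in the same order, with full nutrients at 100 h highest and no phosphate at 100 h lowest, so this gene did not follow the order of CHI. Without phosphate at 100 h it was 12.7-fold lower than in full nutrients on set r (log2 ratio -3.67) and at least 42.7-fold lower on set s.

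ChiC encodes a class V chitinase, of a glycosyl hydrolase family separate from that of CHI. Its intensity was 2.9, below the floor, without phosphate and 11.8 in full nutrients at 100 h, and 212.2 without phosphate and 110.9 in full nutrients at 4 h. Both 4 h arrays lay far above both 100 h arrays. At 100 h neither array reached the level, and the ratio, at least 1.63-fold lower without phosphate, was not callable.

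AT4G16260 encodes a beta-1,3-glucanase of the class that digests callose and fungal glucans. Its intensity was 72.5 without phosphate and 159.9 in full nutrients at 100 h, and 1473 without phosphate and 795.7 in full nutrients at 4 h. The array without phosphate was the lower of the pair at 100 h (2.21-fold, log2 ratio -1.14) and the higher at 4 h (1.85-fold, log2 ratio 0.89).

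OSM34 encodes an osmotin, a thaumatin-family protein linked to osmotic stress and abscisic acid. Its intensity was 43.8 without phosphate and 103.1 in full nutrients at 100 h, and 1817 without phosphate and 973.6 in full nutrients at 4 h. The order of the arrays was that of AT4G16260, with no phosphate lower at 100 h (2.35-fold, log2 ratio -1.24) and higher at 4 h (1.87-fold, log2 ratio 0.90).

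LCR68, also called PDF2.3, encodes a small cysteine-rich peptide of the plant defensin family. Its intensity was 1473 without phosphate and 1206 in full nutrients at 100 h, and 282.9 without phosphate and 229.1 in full nutrients at 4 h. LCR68 was the member whose 100 h arrays both lay above its 4 h arrays. Its phosphate log2 ratios, 0.29 at 100 h and 0.30 at 4 h, were below the SD between probe sets of a gene at both times.

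**Figure D1:**
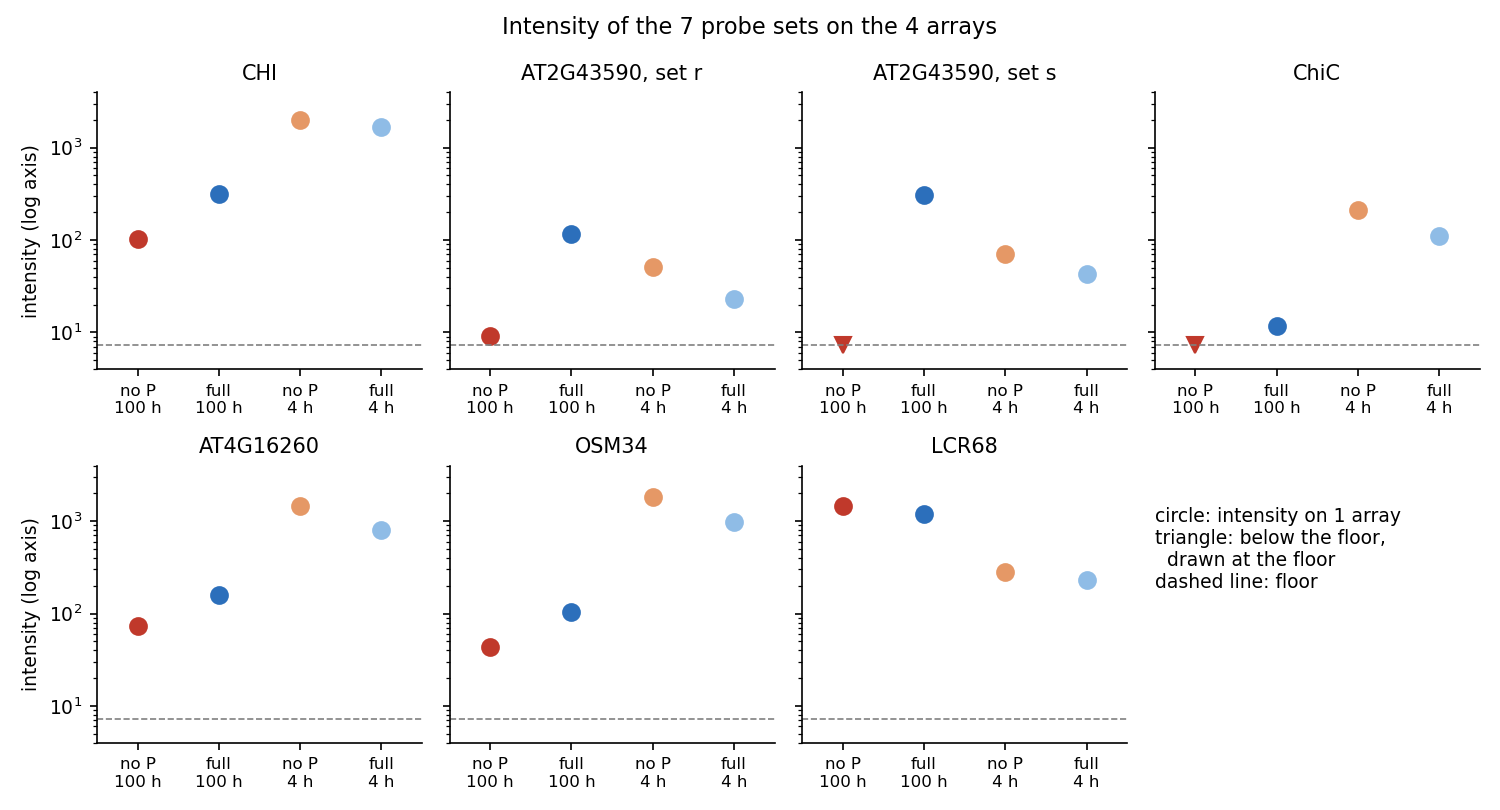
Intensity of each of the 7 probe sets on the 4 arrays (log axis), with no phosphate (no P) left of full nutrients and 100 h left of 4 h; each point is 1 array, and triangles mark values below the floor of 7.25 (dashed). CHI, ChiC, AT4G16260 and OSM34 are high at 4 h and low at 100 h, LCR68 is high at 100 h, and AT2G43590 is highest in full nutrients at 100 h.

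The first comparison is the one the series title names, the response to phosphate deficiency, at 100 h. Chitinase, glucanase and osmotin signals were lower without phosphate, and the defensin-like gene was not. Of the 7 probe sets, 5 were called lower and 0 higher, where 5.38% of the 4331 bright enough probe sets were called lower and 4.76% higher. The 5 were CHI, both sets of AT2G43590, AT4G16260 and OSM34, and ChiC was too dim to be called. The median log2 ratio of the 7 was -1.24, beside 0.02 for all probe sets tested. Set r of AT2G43590 had the lowest log2 ratio of the 4267 bright enough probe sets with neither array under the floor, while OSM34 ranked 111 and AT4G16260 ranked 139 from the lowest. When arrays were scaled to the spike-ins instead, the median of all probe sets was put at 1.12 (log2). CHI (-0.58), AT4G16260 (-0.08) and OSM34 (-0.17) were then no longer called, and LCR68 (1.35) was called higher. Of 4710 probe sets tested under that scaling, 2808 were called higher and 45 lower. With full nutrients at 4 h taken as the control, a ratio that holds the difference in time as well as in phosphate under the labels, the log2 values were -4.02 for CHI, -1.32 and -2.55 for sets r and s of AT2G43590, -3.94 for ChiC, -3.46 for AT4G16260, -4.47 for OSM34 and 2.69 for LCR68, those of ChiC and set s being bounds.

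At 4 h, all 7 probe sets were above their full-nutrient values without phosphate, by small amounts. By the 2-fold rule 1 was called higher, set r of AT2G43590 (2.20-fold), and 0 lower, where 2.21% of 4478 probe sets were called higher and 6.65% lower. A higher signal of any size was found for 51.8% of the 4478. ChiC was 1.91-fold higher (log2 ratio 0.94), OSM34 1.87-fold, AT4G16260 1.85-fold and set s of AT2G43590 1.65-fold, each at least 2.0 times the SD between probe sets of a gene. For CHI and LCR68 (1.23-fold) the difference was smaller than that SD. The median log2 ratio of the 7 was 0.89, beside 0.02 for all probe sets tested. After spike-in scaling, which moved the median of all probe sets to 0.57, 742 of 4484 probe sets tested were called higher. Of the 7 member probe sets, 5 were called higher. These were all but CHI (0.78) and LCR68 (0.82).

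**Figure D2:**
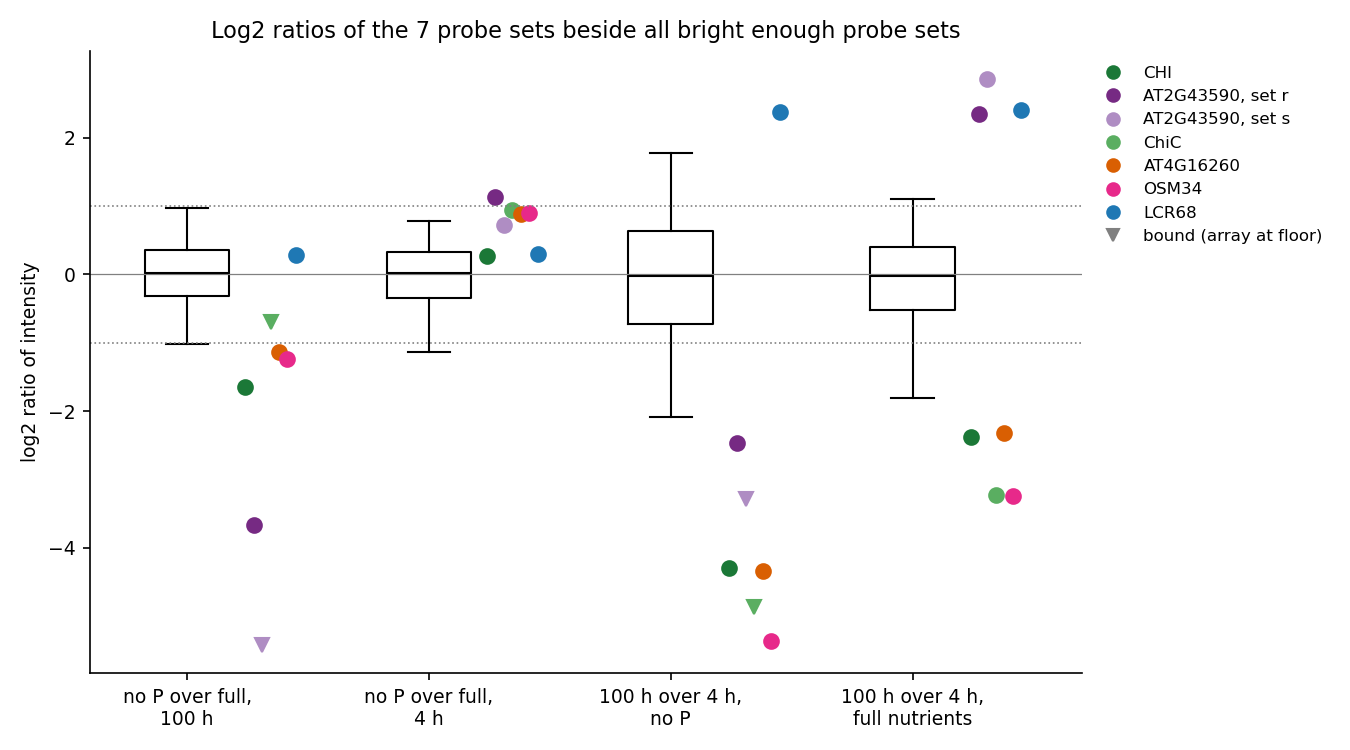
Log2 ratios of intensity (points) for the 4 comparisons beside all probe sets with a bright enough array (boxes with median and quartiles, whiskers at the 5th and 95th percentiles); triangles are bounds and dotted lines mark 2-fold. Most members lie below the box for no phosphate over full nutrients at 100 h and above its median at 4 h, and for time CHI, ChiC, AT4G16260 and OSM34 lie below the lower whisker in both solutions.

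Both phosphate ratios together set AT2G43590 apart from the rest. Its ratio at 100 h minus that at 4 h was -4.80 on set r, rank 7 from the lowest of 4756 probe sets, and -6.14 or lower on set s. The difference was -2.14 for OSM34, -2.03 for AT4G16260, -1.91 for CHI, -1.64 or lower for ChiC and -0.02 for LCR68. It was 2-fold or more toward lower at 100 h for 6 of the 7 probe sets, where 10.1% of the 4756 had such a difference. Of the 6 probe sets tested at both times, 5 had, by any amount, less signal without phosphate at 100 h and more at 4 h, where 29.1% of 4053 probe sets were. The 2 ratios use different arrays, but with 1 array at each corner a fit of this difference has no residual degree of freedom.

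**Figure D3:**
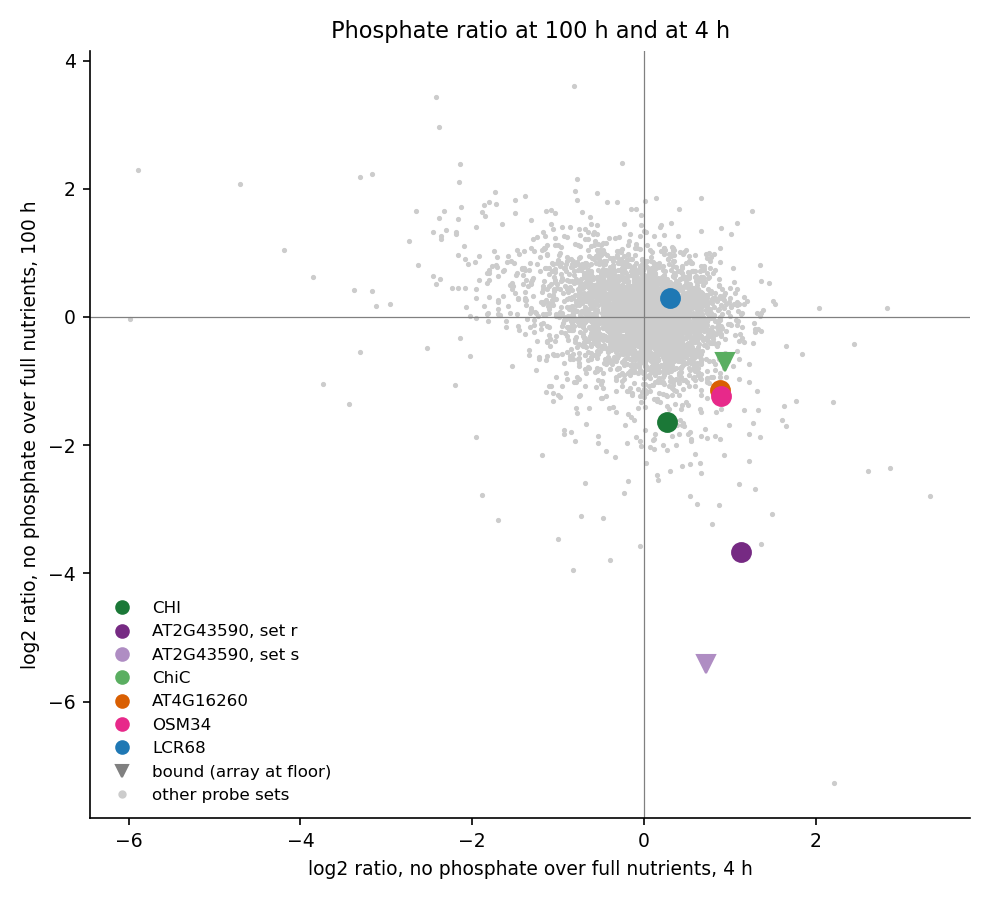
Log2 ratio of no phosphate over full nutrients at 100 h (vertical) against that at 4 h (horizontal), with grey dots for all probe sets tested at both times and triangles for members with an array at the floor. CHI, AT2G43590, ChiC, AT4G16260 and OSM34 lie in the lower right, and LCR68 lies near the centre.

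The other comparison follows the leaves over time, and here the ratios were larger than for phosphate in CHI, ChiC, AT4G16260, OSM34 and LCR68. Without phosphate, 6 of the 7 probe sets were called lower at 100 h than at 4 h and 1 higher, where 17.4% of 4534 probe sets were called lower and 15.3% higher. OSM34 was 41.5-fold lower, rank 3 from the lowest of 4356 probe sets with neither array under the floor. ChiC was at least 29.3-fold lower, AT4G16260 20.3-fold, CHI 19.5-fold, and AT2G43590 5.49-fold on set r and at least 9.68-fold on set s. With the floor at 17.32, the 45th percentile, the log2 ratios became -1.54 for set r, against -2.46 as reported, -2.02 for set s, against -3.28, and -3.61 for ChiC, against -4.87, all as bounds and still past 2-fold. LCR68 was 5.21-fold higher. The median log2 ratio of the 7 was -4.29, beside -0.02 for all probe sets tested.

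In full nutrients, 4 of the 7 were called lower at 100 h than at 4 h and 3 higher, where 12.7% of 4516 probe sets were called lower and 6.44% higher. OSM34 (9.44-fold), ChiC (9.40-fold), CHI (5.22-fold) and AT4G16260 (4.98-fold) were lower. AT2G43590 was higher at 100 h, 5.09-fold on set r and 7.26-fold on set s, as was LCR68, 5.26-fold. Set s of AT2G43590 ranked 4 from the highest of 4428 such probe sets, LCR68 ranked 10 and set r ranked 11. The median log2 ratio of the 7 was -2.32, beside -0.02 for all probe sets tested.

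Taking both solutions, CHI, ChiC, AT4G16260 and OSM34 were lower at 100 h in each, 4 probe sets of 7, where 8.13% of 4294 probe sets tested in both were lower in both. LCR68 was higher in each, with nearly equal log2 ratios of 2.38 without phosphate and 2.40 in full nutrients, where 2.77% of the 4294 were higher in both. The 2 probe sets of AT2G43590 were higher in full nutrients and lower without phosphate, a pattern found for 0.349% of the 4294. These values for full nutrients rest on the array whose title code is in doubt. Of 7 senescence markers, 3 had a named probe set. The median time log2 ratio of all probe sets tested was -0.02 in each solution. All 3 markers had, by any amount, less signal at 100 h in both solutions. By the 2-fold rule 2 were called lower without phosphate, where 17.4% of all probe sets tested were, and WRKY6 (log2 ratio -0.97) was not. In full nutrients 3 were called lower, where 12.7% of all were. WRKY6, a transcription factor gene, was at 40.2 without phosphate and 36.3 in full nutrients at 100 h, and at 78.9 and 153.3 at 4 h in the same order. WRKY53 was at 12.7 without phosphate and 25.7 in full nutrients at 100 h, and at 39.2 and 68.5 at 4 h. SAG29, a sucrose transporter gene, was at 6.1 without phosphate, below the floor, and 38.6 in full nutrients at 100 h, and at 1085 and 177.7 at 4 h. Of the 7 leaf marker probe sets, 4 were called higher and 0 lower at 100 h without phosphate, and 1 higher and 0 lower in full nutrients, beside the 15.3% and 6.44% of all probe sets that were called higher. Without phosphate, the called sets of PSBW (log2 ratio 2.22) and LHB1B2 (1.39) each had another set of the same gene that was not called (0.78 and 0.66). In full nutrients the called set was of LHB1B2 (1.25), and its other set was not called (0.80). The part of leaf age or of the mix of cells in these ratios was not tested, and in whole leaves fewer cells of a type cannot be told apart from less RNA per cell.

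The relatives of the members were described from lists of loci for each family. Of 25 chitinase loci, 16 had a named probe set. Without the members, 13 chitinase probe sets were left, and 3 of them reached the level on at least 1 array. Of these 3, 2 were called lower and 0 higher at 100 h against 4 h in each solution. Over all probe sets tested, 17.4% were called lower without phosphate and 12.7% in full nutrients. The median log2 ratios of the 3 were -2.33 without phosphate and -2.35 in full nutrients, beside -0.02 and -0.03 for all 4756 probe sets at the level. AT2G43620 had 6.4 without phosphate, below the floor, and 100.3 in full nutrients at 100 h, and 392.2 without phosphate and 512.4 in full nutrients at 4 h. It was at least 54.1-fold lower at 100 h than at 4 h without phosphate, 5.11-fold lower in full nutrients, and at least 13.8-fold lower without phosphate than with it at 100 h. AT4G01700 had 21.5 without phosphate and 22.2 in full nutrients at 100 h, and 107.9 and 160.7 at 4 h in the same order, so that it was lower with time in both solutions, 5.02-fold and 7.24-fold, with a phosphate log2 ratio of -0.05 at 100 h.

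CHI and AT2G43590 lie in a row of chitinase genes, since AT2G43570, AT2G43580, AT2G43590, AT2G43600 and AT2G43610 follow each other in the RefSeq gene table. Neighbours in this row differed in pattern over the arrays. AT2G43610 ranged from 37.9 to 46.2 over the 4 arrays and had no log2 ratio beyond 0.25 in size. AT2G43580 and AT2G43600 were below the floor on all 4 arrays, with highest values of 7.1 and 1.9. ChiC lies between AT4G19800 and AT4G19820 in that table, and both were below the level on all 4 arrays, at no more than 3.0 and 7.9. The 8 other class V chitinase probe sets that name 1 gene, from AT4G19720 to AT4G19820, were all below the level on all 4 arrays, with 10.8 for AT4G19750 as their highest value.

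Of 31 beta-1,3-glucanase loci, 11 had a named probe set, and without AT4G16260 there were 5 probe sets at the level, for 4 genes. At 100 h without phosphate 1 was called higher and 0 lower against full nutrients, and 1 higher and 0 lower against 4 h. Over all probe sets tested, 4.76% and 15.3% were called higher and 5.38% and 17.4% lower in these comparisons. The 1 called was AT2G05790, a gene of the same enzyme family. It had 180.7 without phosphate and 40.6 in full nutrients at 100 h, and 16.8 and 28.8 at 4 h in the same order. Its log2 ratio at 100 h was 2.15, opposite in sign to that of AT4G16260. The medians of the 5 for phosphate were 0.17 at 100 h and -0.38 at 4 h, beside 0.00 and 0.01 for all 4756 probe sets. The other 4 probe sets were within 2-fold in all 4 comparisons, and the median log2 ratios for time were 0.44 without phosphate and 0.21 in full nutrients, against -4.34 and -2.32 for AT4G16260.

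Of 24 thaumatin-family loci, 12 had a named probe set, and 6 probe sets other than OSM34 reached the level. None was called lower in any of the 4 comparisons. Over all probe sets tested, 5.38% and 6.65% were called lower for phosphate at 100 h and at 4 h. For time, 17.4% were called lower without phosphate and 12.7% in full nutrients. At such shares, 6 probe sets would give few lower calls. Their median log2 ratios for time were 0.26 without phosphate and 0.66 in full nutrients, beside -0.02 and -0.03 for all 4756 probe sets at the level. AT1G75800 had 39.3 without phosphate and 39.9 in full nutrients at 100 h and was below the floor at 4 h, at least 5.42-fold and 5.50-fold higher with time. ATLP-1, a thaumatin-like protein gene, had 30.5 without phosphate and 38.1 in full nutrients at 100 h, and 14.6 and 16.3 at 4 h in the same order. OSM34 was thus the one thaumatin-family gene at the level that was called lower at 100 h in either solution.

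Of 12 plant defensin loci, 5 had a named probe set, and LCR68, LCR69 and LCR72 reached the level. LCR69 had 296.7 without phosphate and 512.7 in full nutrients at 100 h, and 362.5 and 357.0 at 4 h in the same order. Its time log2 ratios, -0.29 without phosphate and 0.52 in full nutrients, stand beside 2.38 and 2.40 for LCR68. LCR72 had 11.9 without phosphate and 30.9 in full nutrients at 100 h, 2.60-fold lower without phosphate, and 1.4 (below the floor) and 14.8 at 4 h. Like LCR68, it was called higher at 100 h than at 4 h in full nutrients, 2.09-fold (log2 ratio 1.06). Without phosphate its time log2 ratio was at least 0.71, with both arrays too dim for a call.

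**Figure D4:**
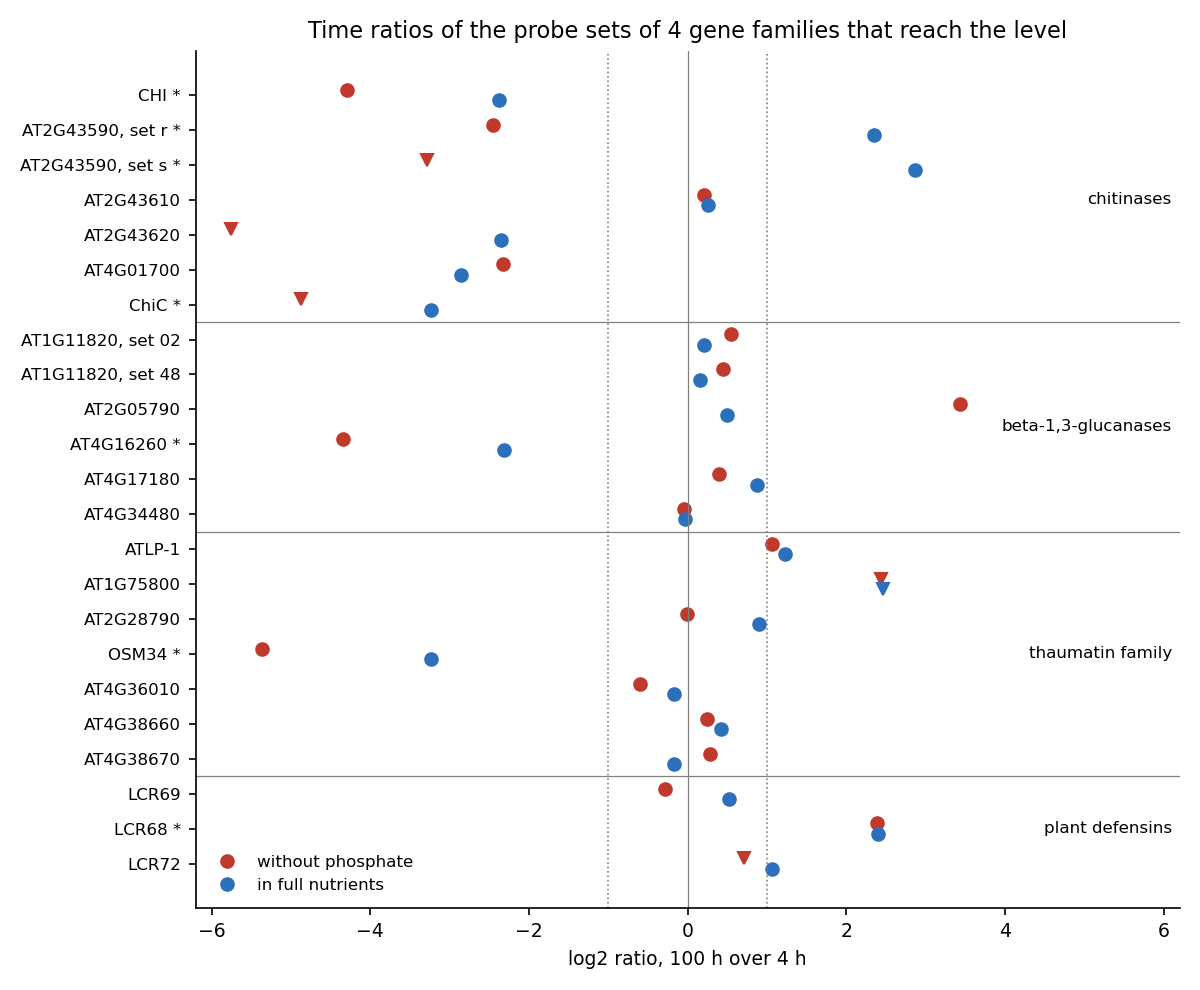
Log2 ratios of 100 h over 4 h without phosphate (red) and in full nutrients (blue) for the probe sets of the 4 families that reach the level on at least 1 array; asterisks mark the members, triangles are bounds and dotted lines mark 2-fold. CHI, AT2G43620, AT4G01700, ChiC, AT4G16260 and OSM34 lie at the left in both solutions, while most glucanase and thaumatin-family genes lie near 0.

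Likeness of pattern was measured as the root mean square difference of log2 values, each centred on its own mean, over the 4 arrays, among 1871 named probe sets above the floor on every array. The nearest to CHI were AT2G41380 (0.15), AT1G05340 (0.17) and Hsp70-2 (0.25), a chaperone gene, and AT4G16260 followed at rank 5 with 0.28. AT4G16260 was nearest to AT4G33150 (0.13), which encodes an enzyme of lysine breakdown, AT2G41380 (0.28) and CHI (0.28). OSM34 was nearest to LTI30 (0.35), a dehydrin gene of cold and drought, AT4G16260 (0.49) and AT4G33150 (0.51), and CHI came at rank 4 with 0.55. CHI, AT4G16260 and OSM34 were thus within 0.55 of each other, but OSM34 came only at rank 15 from CHI and rank 10 from AT4G16260. The members were chosen from their values on these arrays, so this likeness is a description.

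The other members had other nearest genes. Set r of AT2G43590 was nearest to AT4G29030 (0.50), AT2G07000 (0.63) and AT4G00700 (0.79), and it was 1.82 or more from every other member measured. AT4G29030 had 16.5 without phosphate and 105.4 in full nutrients at 100 h, and 41.9 and 17.1 at 4 h in the same order, so it too was highest in full nutrients at 100 h. LCR68 was nearest to EXPA8 (0.21), an expansin gene of cell wall loosening, AT2G28410 (0.24) and AT1G03020 (0.27). EXPA8 had 1949 without phosphate and 1421.5 in full nutrients at 100 h, and 277.9 and 336.0 at 4 h in the same order. LCR68 and OSM34 were the members least alike, at 3.40. ChiC and set s of AT2G43590 had an array below the floor and were not ranked.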

How the data were processed

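RNA of 4 leaf samples was hybridised to 4 Affymetrix arrays, per the labels' protocols. The deposited values are linear intensities, 1 per probe set, and the software that made them is not given in the sources used here. Each array had a mean intensity of 100.2 with 2% trimmed at each end, so the arrays had been scaled alike, and no further scaling was applied. Of 8297 probe sets, 50 controls were left out. The platform annotation named 1 gene for 3794 probe sets and several for 70, and 4383 were unnamed. Through gene IDs, 3784 were matched to the RefSeq table (TAIR 10.1), used for names and neighbours only.

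Values under the floor of 7.25 were set to it and log2 ratios taken in Python 3.11.15 (numpy 2.4.6, pandas 2.3.3), with the 2-fold rule and level given above. The rule was checked on simulated arrays, with known changes larger than 2-fold in probe sets well above the level. That check does not cover changes near 2-fold or signals near the floor. Named genes were the members, the listed family and marker genes, and the 3 nearest named probe sets of each member above the floor on all 4 arrays. Members and lists were chosen with earlier results of these data known. The error estimate was the pooled SD within genes that have 2 or more probe sets. Alternatives were another floor, no floor, quantile normalization, spike-in scaling, no level, 3-fold, and the other control at 100 h. Promoter sequences were not analysed here.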

Additional observations from a re-analysis of the deposited data

Results flagged for a closer look

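With 1 array at each corner, these opposite signs were not tested. As reported, both ratios of each probe set were larger than the SD between probe sets of a gene. The phosphate log2 ratio was below 0 at 100 h and above 0 at 4 h, with a difference (100 h minus 4 h) of -4.80 for set r of AT2G43590 and -6.14 or lower for set s. The difference was -2.14 for OSM34, -2.03 for AT4G16260 and -1.64 or lower for ChiC, whose 100 h arrays were too dim for a call. After spike-in scaling the 100 h log2 ratios of ChiC (-0.23), AT4G16260 (-0.08) and OSM34 (-0.17) were smaller than the SD of 0.41, and with the floor at 17.32 that of ChiC was 0.00. For AT2G43590 the time ratio was likewise below 0 without phosphate and above 0 in full nutrients, with the same differences of -4.80 and -6.14, since both contrasts are made of the same 4 values. The suffix of set s marks probes that may match more than 1 transcript, as do those of the probe sets for AT4G16260 and OSM34, and the part of other transcripts was not tested.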

How the results depend on the processing

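Of 50 counts of members called, 43 stayed within 1.5 times. At 100 h, 5 probe sets were called lower without phosphate as reported, 2 after spike-in scaling and 3 at 3-fold. Over all probe sets tested, these lower calls were 233 of 4331, 45 of 4710 and 103 of 4331. Called higher at 100 h were 0 members as reported, 1 after spike-in scaling and 1 with the 4 h full-nutrient array as control. Over all probe sets tested, these higher calls were 206 of 4331, 2808 of 4710 and 442 of 4551. At 4 h, 1 was called higher as reported, 2 after quantile normalization, 5 after spike-in scaling and 0 at 3-fold. Over all probe sets tested, these were 99 of 4478, 121 of 4386, 742 of 4484 and 20 of 4478. No called ratio of a member changed sign, and the count of 6 probe sets with a phosphate ratio at least 2-fold lower at 100 h than at 4 h stayed within 1.5 times in all 5 alternatives run. In 1 of them, the other control at 100 h, the 4 h full-nutrient array stands in both ratios and cancels. That count is then the count for time without phosphate, and says nothing on the phosphate difference. Of 119 log2 ratios, 32 moved by more than the SD between probe sets of a gene. Spike-in scaling moved 14, the phosphate ratios of every member probe set at both times, and the 4 h control moved 7. The floor at the 45th percentile moved 7 and no floor moved 4, all of them ratios of ChiC and AT2G43590. With the floor at 17.32 (the 45th percentile), set r of AT2G43590 had -2.76 and ChiC 0.00 for phosphate at 100 h, and with no floor ChiC had -2.02 and set s -7.20. For time, the higher floor gave ChiC -2.68 in full nutrients, and no floor gave ChiC -6.19 and set s -5.06 without phosphate.

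Over all probe sets, spike-in scaling changed the higher and lower calls from 206 and 233 to 2808 and 45 for phosphate at 100 h, from 99 and 298 to 742 and 112 at 4 h, from 695 and 790 to 1365 and 532 for time without phosphate, and from 291 and 572 to 165 and 639 in full nutrients. At 3-fold they were 62 and 103, 20 and 115, 306 and 426, and 84 and 288 in the same order. With the 4 h control at 100 h they were 442 and 697. With no level they were 296 and 355, 147 and 394, 813 and 936, and 389 and 704 in the order above. The cause was not tested. Signals near the floor limit ChiC and AT2G43590 at 100 h without phosphate.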

Other observations

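Other pathogenesis-related genes gave few usable signals. Of 8 listed loci, 4 had a named probe set, and 2 of their 7 probe sets reached the level. AT4G33720, of the PR-1 family, had 29.3 in full nutrients at 100 h on 1 probe set, which was below the floor on the other 3 arrays. Its other probe set had 0.7 without phosphate and 16.5 in full nutrients at 100 h, and 4.4 and 7.9 at 4 h in the same order. THI2.1, a thionin gene, had 38.6 without phosphate and 4.6 in full nutrients at 100 h, and 30.3 and 36.4 at 4 h, on 1 of its 3 probe sets, and the others did not reach the level.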
